A study of Homo sapiens with 30 samples.

Results

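The expression of 9 genes of the transforming growth factor beta (TGF-beta) pathway was followed through all RNA-seq libraries of a study on hybrid tumoroids. They were the ligand genes TGFB1, TGFB2 and INHBA, the receptor genes TGFBR1 and TGFBR2, the signal transducers SMAD2 and SMAD3, and the feedback genes SMAD7 and SKIL. These 9 genes were listed by name, by a rule that itself uses no measured value, but with earlier results of these data known. They were matched by gene identifier in each of the 30 libraries, where they were 9 of 60483 gene records. All 9 were among the 18424 genes that passed a filter on low counts. The libraries came from PANC-1, an established line from a human pancreatic ductal carcinoma, grown as free aggregates with or without synthetic cells. The synthetic cells were DSLBs, oil droplets wrapped in a supported lipid bilayer to which protein ectodomains can be coupled. In 7 groups the DSLBs carried PD-1 together with a second immune protein, which was TIGIT, LAG3, ICOS, CTLA4, CD40L, CD27 or CD2, and in another group they carried PD-1 alone. The 2 control conditions were hybrids with plain DSLBs, which had no coupled protein, and DSLB-free tumoroids. Each of these 10 groups had 3 biological replicates by its labels, all cells were labelled wild type, and no TGF-beta ligand or inhibitor is named among the treatments. All groups therefore rest on 1 cell line. Hybrid groups differ from each other in what their DSLBs carried, and DSLB-free tumoroids had no DSLBs at all. Every group with coupled protein carried PD-1. Against plain DSLB hybrids, PD-1 itself, any coupled protein and the coupling procedure cannot be told apart.

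The summed expected counts per library were between 21.9 M and 60.5 M reads, with a median of 40.6 M, and the biological coefficient of variation was 0.0942. Of the epithelial markers, KRT8, KRT18 and KRT19 had medians over the libraries of 3162, 1508 and 1289 TPM (a length-normalised share of transcripts). KRT7, CDH1 and EPCAM were lower, at 12.8, 24.0 and 56.0 TPM, and the mesenchymal gene VIM was at 2739 TPM. The T cell gene CD3E was listed at 0 TPM in every library and CD3D reached at most 0.06 TPM. The macrophage genes CD163 and CSF1R reached at most 0.11 and 0.13 TPM, while CD68 had a median of 37.6 TPM. Of the fibroblast genes, COL1A1 had a median of 194.5 TPM, whereas COL1A2 and DCN reached at most 0.21 and 0.40 TPM. The libraries farthest from their group, relative to the distance between its other 2 replicates, were PD-1/LAG3 replicate 3, PD-1 replicate 1 and DSLB-free replicate 2. The counts of the 9 genes called were repeated without them. As plain distances (chi-square per gene between 2 libraries), the 3 PD-1/CD2 libraries lay 29.5 to 38.4 from each other. PD-1 replicate 1 lay 17.7 from its nearest replicate. Mitochondrial genes took the smallest share of counts, 1.71%, in PD-1/LAG3 replicate 3. By group the share was 3.54% ± 0.764 in PD-1 hybrids, 4.90% ± 0.249 in plain DSLB hybrids and 4.33% ± 0.988 in DSLB-free tumoroids (SD, n = 3 each), and its part in the results was not tested. By the second protein it was 5.97% ± 0.343 with CD27, 5.70% ± 1.13 with CD40L and 3.57% ± 1.61 with LAG3.

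In this pathway a dimeric ligand is secreted in a latent form, released outside the cell and bound by the type II receptor TGFBR2, which phosphorylates the type I receptor TGFBR1. The active receptor phosphorylates SMAD2 and SMAD3, which join SMAD4, enter the nucleus and switch target genes on or off. SMAD7, which blocks the receptors, and SKIL, which represses SMAD complexes, are themselves induced by the signal and close a negative loop. In pancreatic carcinoma the pathway is known both for restraining growth and for driving matrix production and epithelial-mesenchymal transition.

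The stretches upstream of the 2 TGF-beta ligand genes are shown because TGFB1 is the ligand gene that passed the test among the groups and TGFB2 encodes the other TGF-beta ligand followed, although the changes of the 2 genes were not tested against each other. Both are the 250 bases before the RefSeq transcription start on GRCh38.p14, read 5′ to 3′ on the gene's own strand, at chr19:41353923-41354172 on the minus strand for TGFB1 and chr1:218345086-218345335 on the plus strand for TGFB2. Capitals mark matches, on either strand, to the GC box GGGCGG, the TATA box TATAAA and the CAGA box CAGACA, a sequence that SMAD complexes can bind.
TGFB1: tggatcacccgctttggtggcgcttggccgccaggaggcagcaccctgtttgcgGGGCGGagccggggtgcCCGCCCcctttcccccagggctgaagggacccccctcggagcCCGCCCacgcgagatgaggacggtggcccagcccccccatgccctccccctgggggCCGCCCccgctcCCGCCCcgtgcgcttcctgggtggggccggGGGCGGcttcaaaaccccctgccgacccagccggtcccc
TGFB2: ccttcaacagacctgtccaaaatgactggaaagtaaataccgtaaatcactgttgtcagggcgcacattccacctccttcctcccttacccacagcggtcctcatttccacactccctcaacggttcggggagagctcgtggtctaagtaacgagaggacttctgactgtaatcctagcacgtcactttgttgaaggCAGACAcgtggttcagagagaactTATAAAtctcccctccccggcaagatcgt
The TGFB1 stretch was 76.8% G and C and held 6 GC boxes, the farthest at position -196 from the start, but no TATA or CAGA box. The TGFB2 stretch was 50.4% G and C and held a TATA box at -29 and a CAGA box at -53, but no GC box. Over the 35116 promoter windows of the same length in the table, 42.6% held a GC box, 10.7% a TATA box and 13.6% a CAGA box. The palindromic SMAD element GTCTAGAC was in 0.182% of windows and in none of the 24 windows of the 9 genes. No overlap between motifs was present in either stretch, and such matches are descriptions of letters, not binding sites.

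Per length of transcript, the transducer genes were the most abundant of the 9 and INHBA the least. The medians over the 30 libraries were 123.6 TPM for SMAD3 (range 89.5 to 153.9) and 85.2 TPM for SMAD2 (69.0 to 102.4). TGFBR2 and SKIL followed at 38.8 TPM (27.4 to 48.0) and 38.3 TPM (26.8 to 55.6), and their ranges overlapped almost wholly. TGFB1 had a median of 32.1 TPM (28.8 to 36.4) and TGFB2 one of 27.4 TPM (19.2 to 34.4), again with overlapping ranges. TGFBR1, which was less abundant than its partner TGFBR2 in every library, had a median of 13.0 TPM (8.30 to 16.6). SMAD7 was at 8.29 TPM (5.95 to 11.6), and INHBA, the subunit of activin A, at 2.42 TPM (1.84 to 2.93). Among all genes tested, the median TPM of SMAD3 was at the 93.6th percentile, that of TGFB1 at the 75.4th and that of INHBA at the 32.4th.

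**Figure D1:**
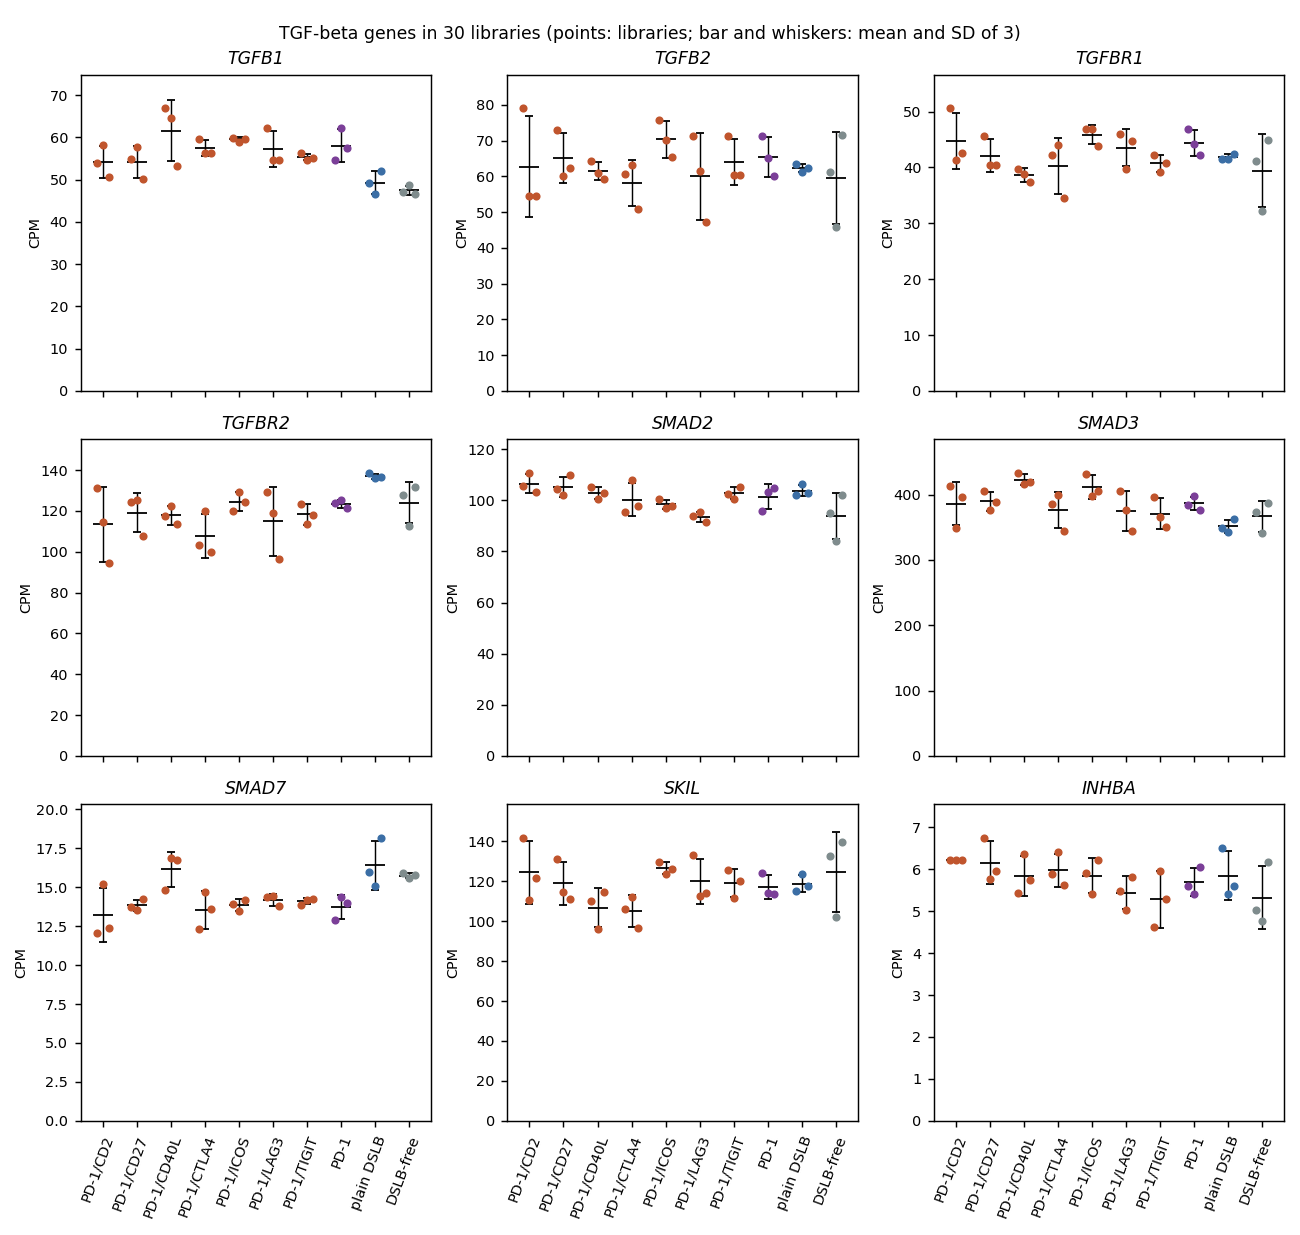
Normalised read counts (CPM on TMM-scaled libraries, linear axes from 0) of the 9 genes in the 10 groups. Points are single libraries, and the bar and whiskers are the mean and SD of 3. TGFB1 lies at 46.6 to 52.1 CPM in the 6 control libraries and at 50.1 to 66.9 CPM in the 24 libraries with protein-bearing DSLBs, and SMAD7 shows the opposite order apart from PD-1/CD40L and 1 PD-1/CD2 library.

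Differences in levels between groups were small beside the levels themselves. In CPM, the read count scaled to the size of the library, the ratio of the highest to the lowest of the 30 libraries was between 1.27 for SMAD3 and 1.72 for TGFB2. The coefficient of variation between replicates within a group was between 4.44% for SMAD2 and 13.4% for TGFB2. One test per gene asked whether any of the 10 groups differed (edgeR's quasi-likelihood F-test, adjusted by Benjamini-Hochberg over all 18424 genes). TGFB1 (adjusted p = 0.00308) and SMAD7 (adjusted p = 0.0163) passed, which is 2 of the 9 genes beside 41% of all genes tested. SMAD3 (adjusted p = 0.0702), SMAD2 (0.0932), TGFBR2 (0.163), SKIL (0.250), TGFBR1 (0.299), INHBA (0.449) and TGFB2 (0.840) did not pass. Both calls were kept when any single library was left out, with an adjusted p of at most 0.0240 for TGFB1 and 0.0463 for SMAD7. TGFB1 did not pass with a trend in gene GC content removed from each library (adjusted p = 0.197) or on the deposited TPM (limma, 0.333), and SMAD7 did not without the filter on low counts (0.0677).

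When hybrids with protein-bearing DSLBs were set against plain DSLB hybrids, TGFB1 and SMAD3 were called only as higher, and TGFBR2 and SMAD7 only as lower. These 8 comparisons share the same 3 plain DSLB libraries, so they are not independent of each other. Of their 72 tests of the 9 genes 15 passed, 7 of them higher and 8 lower. With PD-1 alone 2 genes passed, TGFB1 (higher) and SMAD7 (lower), which is 22.2% of the 9 genes beside 22% of all genes (11.3% higher and 10.7% lower). With PD-1/CD2 TGFBR2 and SMAD7 (both lower) passed, beside 29.6% of all genes (14.1% higher, 15.4% lower), and with PD-1/CD27 SMAD7 (lower) passed, beside 23.8% (12.4% higher, 11.4% lower). With PD-1/CD40L TGFB1 and SMAD3 (both higher) passed, beside 25.5% of all genes (13.2% higher, 12.3% lower). With PD-1/CTLA4 3 genes passed, TGFB1 (higher), TGFBR2 and SMAD7 (both lower), beside 34.2% (17% higher, 17.2% lower). With PD-1/ICOS 3 genes passed, TGFB1 and SMAD3 (both higher) and SMAD7 (lower), beside 19.6% (9.81% higher, 9.8% lower). With PD-1/LAG3 TGFB1 (higher) and TGFBR2 (lower) passed, beside 30.3% of all genes (16.2% higher, 14.1% lower). With PD-1/TIGIT none passed by edgeR's test, beside 22.5% (10.9% higher, 11.6% lower), although 3 of the 9 had an unadjusted p under 0.05 and DESeq2 on the 6 libraries compared called 2. The share of the 9 genes called was therefore near that of all genes in most comparisons, and their median absolute log2 fold change, 0.0891 for PD-1 alone, was below the 0.205 of all genes tested.

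**Figure D2:**
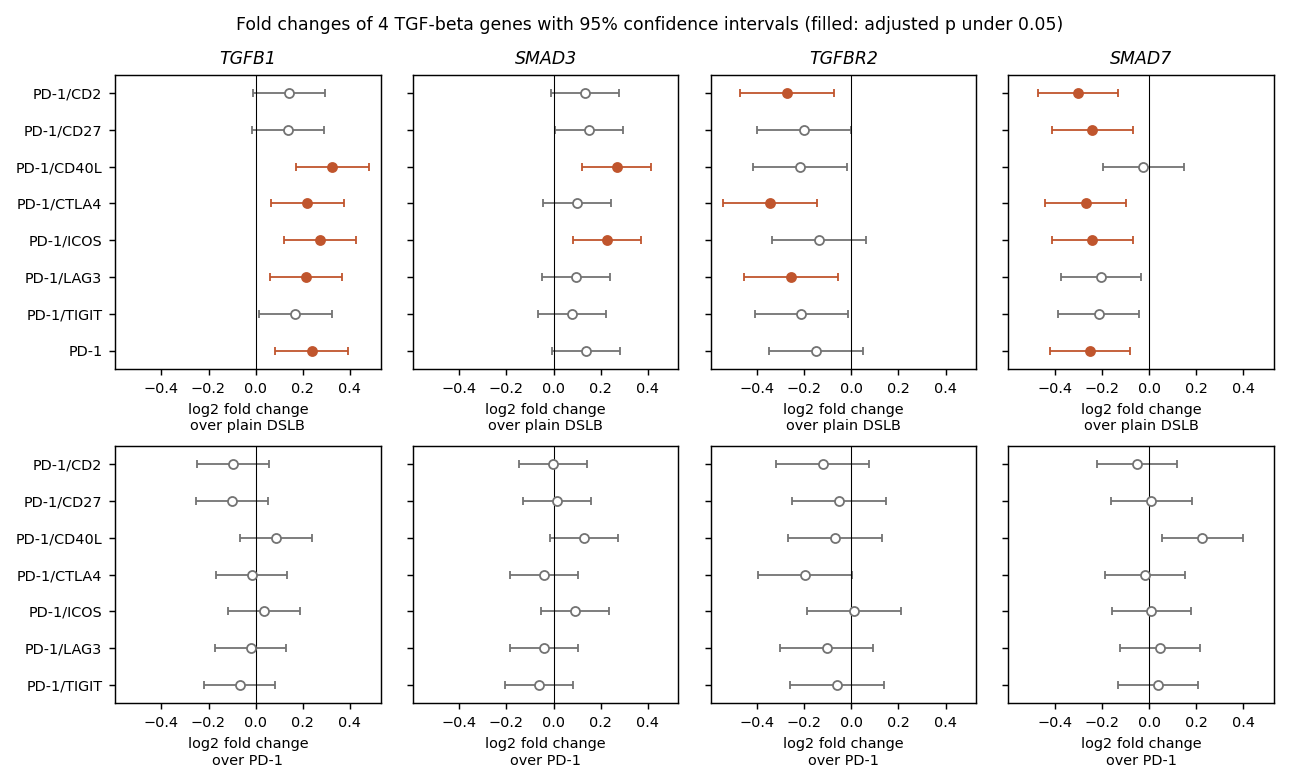
Log2 fold changes (horizontal axes) of TGFB1, SMAD3, TGFBR2 and SMAD7 for each group with protein-bearing DSLBs (rows), over plain DSLB hybrids in the upper panels and over PD-1 hybrids in the lower ones. Points are edgeR estimates with 95% confidence intervals, filled where the adjusted p was under 0.05. All 8 estimates over plain DSLB hybrids lie above 0 for TGFB1 and SMAD3 and below 0 for TGFBR2 and SMAD7, and no point over PD-1 hybrids is filled.

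A further comparison, chosen after the data were seen, set the mean of the 8 groups with protein-bearing DSLBs against the mean of plain DSLB hybrids and DSLB-free tumoroids. It called 4 of the 9 genes, TGFB1 and SMAD3 higher and TGFBR2 and SMAD7 lower, which is 44.4% beside 50.4% of all genes (25.9% higher, 24.5% lower). The called differences were of at most 1.18-fold. The count was 3 or 4 when any single library was left out, and 4 without the 3 libraries that stood apart. The other 5 genes had log2 fold changes between -0.06 and 0.07 in it.

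Of the ligand genes, TGFB1 was the one that passed. TGFB1 (ENSG00000105329.8, chr19:41301587-41353922 on GRCh38 by GENCODE v44, minus strand) encodes the founding ligand of the family. Its level was 54.6, 62.2 and 57.4 CPM in PD-1 hybrids, against 49.3, 46.6 and 52.1 CPM in plain DSLB hybrids and 47.2, 48.7 and 46.6 CPM in DSLB-free tumoroids. Every PD-1 library was above every control library. The log2 fold change of PD-1 over plain DSLB hybrids was 0.24 (standard error 0.0747, 1.18-fold, edgeR adjusted p = 0.0225). With PD-1/CD40L the 3 libraries were at 66.9, 64.6 and 53.3 CPM, also above all 6 controls, and the log2 fold change over plain DSLB hybrids was 0.33 (standard error 0.0751, edgeR adjusted p = 0.00195). PD-1/ICOS libraries lay close together at 59.9, 59.0 and 59.7 CPM (0.27, standard error 0.0746, edgeR adjusted p = 0.00956). PD-1/CTLA4 hybrids, at 59.6, 56.4 and 56.2 CPM, and PD-1/LAG3 hybrids, at 62.3, 54.8 and 54.7 CPM, both gave a log2 fold change of 0.22 (edgeR adjusted p = 0.0240 with CTLA4 and 0.0290 with LAG3). PD-1/TIGIT (0.17, edgeR adjusted p = 0.105), with 56.3, 54.7 and 55.2 CPM, and the PD-1/CD2 and PD-1/CD27 hybrids did not pass against plain DSLB hybrids. Over all groups 22 of the 24 libraries with protein-bearing DSLBs were above the highest control library, the exceptions being 1 each of PD-1/CD2 and PD-1/CD27.

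For the 8 groups against both controls the log2 fold change of TGFB1 was 0.24 (standard error 0.0423, edgeR adjusted p = 2.78e-05). It remained past the threshold in each of the 30 fits that left out 1 library (adjusted p at most 0.000273). TGFB1 is rich in G and C (63.6% of its longest transcript), and with a GC trend removed per library its log2 fold change in that comparison was 0.14 (adjusted p = 0.0170). The same step left none of its 5 calls against plain DSLB hybrids past the threshold, with 0.12 for PD-1 (adjusted p = 0.318), 0.16 for PD-1/CD40L (0.183) and -0.01 for PD-1/LAG3 (0.942). On the deposited TPM none of the 5 passed limma's test either, with 0.10 for PD-1 (adjusted p = 0.428), 0.24 for PD-1/ICOS (0.0521), 0.15 for PD-1/CD40L (0.201), 0.07 for PD-1/LAG3 (0.529) and 0.05 for PD-1/CTLA4 (0.667). The PD-1 call was also lost without PD-1 replicate 2, plain DSLB replicate 1 or 2, or any 1 PD-1/CTLA4 library, which share the estimate of spread (adjusted p between 0.0517 and 0.130), while the PD-1/CD40L call was kept without any 1 of the 30 libraries. The PD-1/ICOS call was lost without plain DSLB replicate 2 (0.0534), and the PD-1/CTLA4 call without plain DSLB replicate 1 or 2 or PD-1/CTLA4 replicate 1 or 3 (0.0530 to 0.134). The PD-1/LAG3 call was lost without plain DSLB replicate 1 or 2, any PD-1/CTLA4 library, the first replicate of PD-1/LAG3, PD-1 or PD-1/CD40L, or PD-1/CD2 replicate 2 (0.0558 to 0.160). The TGFB1 locus overlaps genes annotated on the other strand, of which HNRNPUL1 averaged 91.8 TPM and CCDC97 10.9 TPM. The log2 fold changes of HNRNPUL1 and CCDC97 in the 8 groups against both controls were -0.17 and -0.10, opposite in sign to that of TGFB1. TMEM91 (3.65 TPM) and ENSG00000255730 (9.11 TPM) also overlap the TGFB1 locus on the other strand. Neither passed edgeR's test among the 10 groups (adjusted p = 0.364 and 0.262). The part of these genes in the TGFB1 result was not tested. Since the strand setting of the counting is not given in the sources used here, reads of overlapping genes may not be fully separated.

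TGFB2 (ENSG00000092969.10, chr1:218345336-218444619, plus strand), a second ligand of the same receptors, passed in no comparison by edgeR's test over all libraries. Fits of the 6 libraries compared called it higher in PD-1/ICOS than in plain DSLB hybrids, by edgeR (adjusted p = 0.00861) and by DESeq2 (0.0126), both at a log2 fold change of 0.17. It had 71.2, 65.0 and 60.1 CPM in PD-1 hybrids, against 63.5, 61.1 and 62.3 CPM in plain DSLB hybrids and 61.3, 45.9 and 71.5 CPM in DSLB-free tumoroids. The groups overlapped, and the 95% interval of the log2 difference between the 8 groups and both controls was -0.12 to 0.23, which nearly reaches the TGFB1 value. INHBA (ENSG00000122641.9, chr7:41667168-41705834, minus strand), counted by 124 to 366 reads per library, had group means between 5.29 ± 0.679 CPM in PD-1/TIGIT (SD, n = 3) and 6.22 CPM in each of the 3 PD-1/CD2 libraries, with 5.85 ± 0.586 CPM in plain DSLB hybrids (SD, n = 3). None of its 8 log2 fold changes over plain DSLB hybrids, which lay between -0.15 and 0.09, passed the test.

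Of the receptor genes, TGFBR2 (ENSG00000163513.16, chr3:30606601-30694142, plus strand) was lower than in plain DSLB hybrids in all 8 groups, and the difference passed in 3. It had 103, 120 and 99.9 CPM in PD-1/CTLA4 hybrids, 131, 115 and 94.4 CPM in PD-1/CD2 hybrids and 129, 119 and 96.4 CPM in PD-1/LAG3 hybrids, against 138, 136 and 137 CPM in plain DSLB hybrids. The plain DSLB libraries were the tightest group, and none of the 24 libraries with protein-bearing DSLBs reached them. The DSLB-free tumoroids, at 128, 113 and 132 CPM, overlapped with the groups that carried proteins. The log2 fold changes over plain DSLB hybrids were -0.35 for PD-1/CTLA4 (standard error 0.0972, edgeR adjusted p = 0.00708), -0.27 for PD-1/CD2 (0.0970, adjusted p = 0.0351) and -0.25 for PD-1/LAG3 (0.0969, adjusted p = 0.0468). With a length trend of the genes removed per library none of the 3 calls remained (-0.14, -0.09 and -0.11), nor did the difference of the 8 groups from both controls, which was -0.15 (adjusted p = 0.0197) as counted and -0.03 (adjusted p = 0.600) with that step. PD-1/LAG3 replicate 3 held the lowest of its group, and without it the PD-1/LAG3 difference was -0.14 (adjusted p = 0.321). The PD-1/CD2 call was lost without any 1 plain DSLB library or without PD-1/CD2 replicate 2 or 3 (adjusted p between 0.0704 and 0.250). The PD-1/LAG3 call was at the threshold and was lost in 13 of 30 such fits, among them those without any 1 plain DSLB library or PD-1/LAG3 replicate 2 (adjusted p between 0.0506 and 0.321), while the PD-1/CTLA4 call was kept in all 30.

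TGFBR1 (ENSG00000106799.11, chr9:99104038-99154192, plus strand) had 46.8, 44.2 and 42.2 CPM in PD-1 hybrids, against 42.4, 41.5 and 41.4 CPM in plain DSLB hybrids. Its group means ran between 38.7 ± 1.21 CPM in PD-1/CD40L and 45.9 ± 1.74 CPM in PD-1/ICOS hybrids (SD, n = 3 each), with DSLB-free tumoroids at 39.4 ± 6.59 CPM, and no comparison passed by edgeR's test over all libraries. The log2 fold change of the 8 groups over both controls was 0.07, with a 95% interval of -0.05 to 0.18, and TGFBR1 was called in 2 of the 8 other settings of that comparison, at 0.21 with the length trend removed (adjusted p = 9.7e-05) and 0.10 with the GC trend removed (0.0426). Against plain DSLB hybrids the direction of TGFBR1 depended on the setting. With PD-1/CD2 it was -0.45 on the deposited TPM (limma adjusted p = 0.0318) and 0.30 with the length trend removed (0.00264).

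SMAD3 (ENSG00000166949.14, chr15:67063763-67195173, plus strand) was called higher than in plain DSLB hybrids in 2 of the 8 groups, PD-1/CD40L and PD-1/ICOS. It had 433, 417 and 420 CPM in PD-1/CD40L hybrids and 432, 397 and 406 CPM in PD-1/ICOS hybrids, against 349, 343 and 362 CPM in plain DSLB hybrids and 373, 341 and 387 CPM in DSLB-free tumoroids. All 6 libraries with CD40L or ICOS were above all 6 controls. The log2 fold changes over plain DSLB hybrids were 0.27 for PD-1/CD40L (standard error 0.0706, edgeR adjusted p = 0.00591) and 0.23 for PD-1/ICOS (standard error 0.0706, adjusted p = 0.0217). PD-1 hybrids had 385, 398 and 377 CPM, and their log2 fold change of 0.14 did not pass. Over PD-1 hybrids, SMAD3 was at 0.13 with PD-1/CD40L (edgeR adjusted p = 0.491) and 0.09 with PD-1/ICOS (0.684), and neither passed. The calls therefore do not separate these 2 groups from PD-1 alone. Across the 8 groups the log2 fold change of SMAD3 over both controls was 0.12 (adjusted p = 0.0151), and 14 of the 24 libraries were above the highest control. That call was lost without DSLB-free replicate 2, PD-1 replicate 1, PD-1/CD40L replicate 1 or 3, or PD-1/CTLA4 replicate 1 or 2 (adjusted p between 0.0545 and 0.0667), and the PD-1/ICOS call without plain DSLB replicate 1 or 2 or PD-1/ICOS replicate 1 (0.0522 to 0.0982). On the deposited TPM the PD-1/CD40L and PD-1/ICOS differences were 0.05 and 0.23, and neither passed limma's test.

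SMAD2 (ENSG00000175387.14, chr18:47808957-47931146, minus strand), the companion of SMAD3, was the steadiest of the 9 genes between replicates. Its group means were between 93.6 ± 1.87 CPM in PD-1/LAG3 and 107 ± 3.65 CPM in PD-1/CD2 hybrids, with 104 ± 2.16 CPM in plain DSLB hybrids and 93.8 ± 9.07 CPM in DSLB-free tumoroids (SD, n = 3 each). The 95% interval of the log2 difference between the 8 groups and both controls was -0.03 to 0.11. SMAD2 came nearest to a call with PD-1/LAG3 against plain DSLB hybrids (-0.15, edgeR adjusted p = 0.0627), and 4 of 13 other settings did call it, among them the deposited TPM (-0.40, limma adjusted p = 0.000506). The SMAD3 and SMAD2 differences were not tested against each other.

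SMAD7 (ENSG00000101665.7, chr18:48919853-48950965, minus strand), the inhibitory SMAD, fell in 5 of the 8 groups relative to plain DSLB hybrids. It had 12.9, 14.4 and 14.0 CPM in PD-1 hybrids, against 16.0, 15.1 and 18.2 CPM in plain DSLB hybrids and 15.9, 15.6 and 15.8 CPM in DSLB-free tumoroids. Every PD-1 library was below every control library. The log2 fold change of PD-1 over plain DSLB hybrids was -0.25 (standard error 0.0830, edgeR adjusted p = 0.0300). It was -0.30 for PD-1/CD2 (adjusted p = 0.00697), -0.27 for PD-1/CTLA4 (0.0135), -0.24 for PD-1/CD27 (0.0353) and -0.24 for PD-1/ICOS (0.0402), while PD-1/LAG3 (-0.20, 0.0607) and PD-1/TIGIT (-0.21, 0.0621) did not pass. PD-1/CD40L hybrids stood apart with 14.8, 16.9 and 16.7 CPM, which overlapped both controls, and a log2 fold change of -0.03 over plain DSLB hybrids (adjusted p = 0.865). Their difference from PD-1 hybrids was 0.23 (unadjusted p = 0.0119, adjusted p = 0.313), so it did not pass over all genes. Of the 24 libraries with protein-bearing DSLBs 21 were below the lowest control library, the exceptions being PD-1/CD40L replicates 2 and 3 and PD-1/CD2 replicate 2.

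For the 8 groups against both controls the log2 fold change of SMAD7 was -0.19 with a standard error of 0.0455 (edgeR adjusted p = 0.00095), and the call held in all 30 fits without 1 library and with a GC trend removed (-0.24) or a length trend removed (-0.17). The single comparisons with plain DSLB hybrids depended on plain DSLB replicate 3, the highest SMAD7 library. Without it none of the 5 passed, with adjusted p between 0.0763 and 0.244 and log2 fold changes between -0.22 and -0.17. The PD-1, PD-1/CD27 and PD-1/ICOS calls were also lost without plain DSLB replicate 1, the PD-1 call without PD-1 replicate 1 or 3, the PD-1/CTLA4 call without PD-1/CTLA4 replicate 1, those of PD-1/CD27 and PD-1/ICOS without any 1 of their own libraries, and that of PD-1/ICOS also without DSLB-free replicate 1 or 3 (adjusted p between 0.0508 and 0.125). Without the filter on low counts the PD-1, PD-1/CD27, PD-1/CTLA4 and PD-1/ICOS calls were lost too (adjusted p between 0.0664 and 0.170). SMAD7 was counted by 361 to 893 reads per library.

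SKIL (ENSG00000136603.12, chr3:170357342-170396835, plus strand) had 114, 114 and 124 CPM in PD-1 hybrids, against 115, 118 and 123 CPM in plain DSLB hybrids, and these ranges overlapped. Its group means lay between 105 ± 7.84 CPM in PD-1/CTLA4 and 127 ± 2.96 CPM in PD-1/ICOS hybrids, with DSLB-free tumoroids at 125 ± 20.1 CPM (SD, n = 3 each). No comparison passed by edgeR's test over all libraries, and the 95% interval for the 8 groups against both controls was -0.17 to 0.06 on the log2 scale. Other settings did call SKIL, in 5 of 11 for the test among the groups (lowest adjusted p = 0.00638) and in 1 of 8 for the 8 groups against both controls (0.0376, without the 3 libraries that stood apart and PD-1/CTLA4 replicate 2). Both tests also passed without DSLB-free replicate 2 alone (0.0306 among the groups and 0.0482). With PD-1/CD2 over plain DSLB hybrids it was -0.56 on the deposited TPM (limma adjusted p = 0.00875) and 0.24 with the length trend removed (0.0126), and with PD-1/CTLA4 it was -0.66 on the deposited TPM (0.00207).

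A second immune protein beside PD-1 gave no called difference from PD-1 alone in any of the 9 genes. These 7 comparisons, which are those the study used to look for co-signaling, share the 3 PD-1 libraries. None of the 63 tests passed edgeR's threshold and 1 had an unadjusted p under 0.05, that of SMAD7 with PD-1/CD40L. None passed under any of the 13 other settings, DESeq2 included. Over all genes the shares called were 1.23% with CD2 (0.733% higher, 0.499% lower), 2.29% with CD27 (2.05% higher, 0.233% lower), 0.0109% with CD40L and 0.0434% with CTLA4 (all higher), and 0% with ICOS, LAG3 and TIGIT, so 0 of 9 is near the background in each. The log2 fold changes over PD-1 hybrids were between -0.20 and 0.23. The median standard error of the 9 genes in these comparisons was between 0.0964 and 0.0972. Plain DSLBs also gave no called difference from DSLB-free tumoroids in the 9 genes, where 0.0109% of all genes passed edgeR's test. There SMAD2 alone had an unadjusted p under 0.05, at a log2 fold change of 0.15 (95% interval 0.02 to 0.27, adjusted p = 0.802), and DESeq2 called none of the 9.

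The other genes of the pathway moved in both directions between hybrids with PD-1 and with plain DSLBs. Of 69 further genes listed by role, 64 passed the filter on low counts, and in PD-1 over plain DSLB hybrids 6 were higher and 16 lower, 34.4% beside 22% of all genes. Their median log2 fold change was -0.06, that of all genes -0.00. These genes were listed by role with earlier results of these data known. The shares here and below therefore describe the lists and are no test of enrichment. The same list gave 16 higher and 26 lower genes for the 8 groups against both controls (65.6%, median -0.07, beside 50.4% and 0.01 over all genes), and 0 for plain DSLB hybrids against DSLB-free tumoroids. Without the 3 libraries that stood apart the counts in PD-1 over plain DSLB hybrids were 5 higher and 16 lower, and 15 higher and 26 lower for the 8 groups against both controls. In PD-1 over plain DSLB hybrids they ran between 3 and 6 higher and 12 and 16 lower when any single library of the pair was left out. Each of the 7 groups with a second protein, which share the plain DSLB libraries, had 5 to 12 of the 64 genes higher and 15 to 23 lower than plain DSLB hybrids, 37.5% to 53.1% of the list beside 19.6% to 34.2% of all genes.

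The 24 target genes include matrix proteins, transcription factors and matricellular proteins induced by TGF-beta in many cells. Of these, 23 were tested, and 4 rose while 9 fell in PD-1 over plain DSLB hybrids (median log2 fold change -0.19). That is 56.5% beside 22% of all genes, on a list drawn up with earlier results of these data known. ANGPTL4, a secreted lipase inhibitor that hypoxia and lipid-sensing receptors also induce, rose to 130, 144 and 163 CPM in PD-1 hybrids, against 53.8, 65.9 and 67.3 CPM in plain DSLB hybrids (1.22 on the log2 scale with a standard error of 0.149, adjusted p = 1.68e-06 by edgeR). The groups did not overlap. JUNB, a subunit of AP-1, TGFBI, a matrix protein, and SNAI1, a repressor of epithelial genes, rose by 0.60, 0.31 and 0.35. SNAI1 was the least firm of these, and passed in 6 of the 13 other settings and 3 of 6 fits without 1 library.

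FN1, which encodes the matrix protein fibronectin, fell to 19.6, 22.4 and 24.9 CPM in PD-1 hybrids, against 61.9, 63.4 and 72.7 CPM in plain DSLB hybrids and 57.7, 59.9 and 63.1 CPM in DSLB-free tumoroids. Its log2 fold change over plain DSLB hybrids was -1.57 (standard error 0.114, edgeR adjusted p = 1.55e-10), and every PD-1 library was below every control. CCN2, connective tissue growth factor and a classical TGF-beta target, fell to 34.3, 35.7 and 39.4 CPM in PD-1 hybrids, against 61.0, 66.8 and 73.1 CPM in plain DSLB hybrids (-0.88, standard error 0.0942, adjusted p = 1.08e-07). Its relative CCN1, which like CCN2 is also a target of YAP, fell by 0.65 on the log2 scale. ID3, a target chiefly of the BMP branch that TGF-beta can repress, fell to 40.5, 40.5 and 41.2 CPM in PD-1 hybrids, against 75.6, 75.7 and 78.3 CPM in plain DSLB hybrids (-0.91, adjusted p = 3.38e-05). NEDD9, a scaffold of focal adhesions, had -0.94, the collagen genes COL1A1 and COL4A1 -0.57 and -0.45, the protease gene ADAM19 -0.39 and TSC22D1 -0.19. NEDD9, COL4A1 and TSC22D1 passed in 5, 4 and 4 of the 6 fits without 1 library. Thus target genes moved in opposite directions in the same libraries, TGFBI up and CCN2 down. CDKN1A (0.16, adjusted p = 0.0866), the cell cycle inhibitor p21, ZEB1 (-0.05), HMGA2 (0.02) and ID1 (-0.02) did not pass.

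In the other roles the share of genes called in PD-1 over plain DSLB hybrids was 9.09% to 33.3%, beside 22% of all genes. Of 9 tested genes that process or release latent ligand, 2 fell and none rose (22.2%). ITGB8, a subunit of the integrin that activates latent TGF-beta, fell to 8.40, 8.43 and 9.12 CPM in PD-1 hybrids, against 15.6, 16.9 and 17.2 CPM in plain DSLB hybrids (-0.94, standard error 0.123, edgeR adjusted p = 2.56e-06). LTBP1, which tethers latent ligand to the matrix, fell by 0.36 on the log2 scale (adjusted p = 0.00303). Of 7 tested further ligand genes, BMP4 (-0.76, adjusted p = 0.0131) and BMP7 (-0.40, adjusted p = 0.000863) fell and none rose (28.6%). Of 8 further receptor genes, the co-receptor ENG (0.25, adjusted p = 0.0229) rose and the activin receptor ACVR1B (-0.18, adjusted p = 0.0287) fell (25%). Of the 6 genes of the other SMADs and a SMAD anchor, SMAD1 (0.22), which serves BMP signals, rose, SMAD6 (-0.24), the inhibitory SMAD of that branch, fell, and SMAD4 (-0.08, adjusted p = 0.407), the shared partner, did not pass. Of 11 inhibitors, 1 fell, the ubiquitin ligase gene SMURF2 (-0.42, standard error 0.0772, adjusted p = 0.000235). The calls for ENG, ACVR1B and SMAD1 passed in 3, 2 and 2 of the 6 fits without 1 library, and those of BMP4 and LTBP1 in 5.

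**Figure D3:**
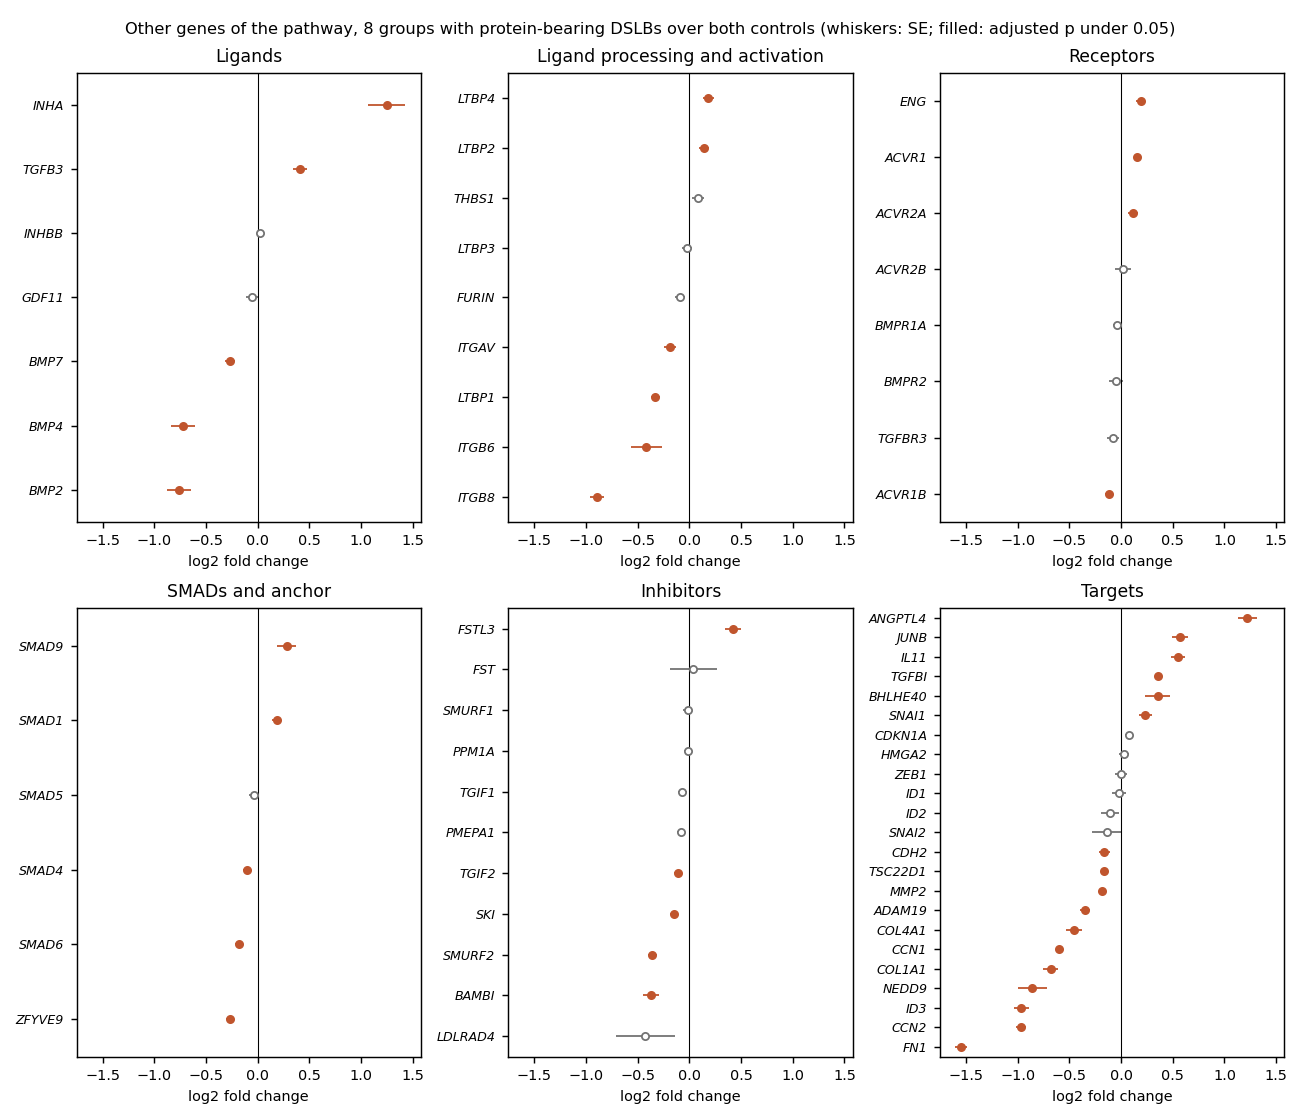
Log2 fold changes (horizontal axes) of the 64 other pathway genes tested, by role, for the mean of the 8 groups with protein-bearing DSLBs over the mean of plain DSLB hybrids and DSLB-free tumoroids. Whiskers are standard errors, and filled points have an adjusted p under 0.05. Targets spread in both directions, with ANGPTL4 at 1.22 and JUNB at 0.57 on the high side and FN1 at -1.55 and CCN2 at -0.97 on the low side.

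For the 8 groups against both controls, the same targets led on each side and further genes passed. INHA, the inhibin subunit that antagonises activin, had a log2 fold change of 1.25 (adjusted p = 2.19e-06) with levels under 1 CPM in PD-1, plain DSLB and DSLB-free libraries. TGFB3, the third TGF-beta ligand, was at 0.41 (adjusted p = 2.49e-05). Neither passed in PD-1 over plain DSLB hybrids, where TGFB3 lay between -0.11 and 0.08 over the 13 other settings and the fits without 1 library. IL11, a cytokine target, was at 0.55, FSTL3, an activin antagonist, at 0.43, and BMP2 at -0.76. BAMBI, a decoy receptor, was at -0.37, SKI, the repressor related to SKIL, at -0.15, TGIF2 at -0.11 and ZFYVE9, the SMAD anchor, at -0.27. The integrin genes ITGB6 and ITGAV were at -0.42 and -0.18, the latent ligand binders LTBP2 and LTBP4 at 0.14 and 0.18, and the receptors ACVR1 and ACVR2A at 0.16 and 0.12. SMAD9 of the BMP branch was at 0.28, SMAD4 at -0.10, BHLHE40 at 0.35, MMP2 at -0.18 and CDH2 at -0.16. Of these, ACVR2A passed in 9 of the 30 fits without 1 library, LTBP2 and SMAD4 in 25, ITGB6 in 26 and SMAD9 in 28. Of the 8 other settings, ACVR2A passed in 3, SMAD4, SMAD9 and TGIF2 in 6, and SKI, ITGAV, LTBP2, LTBP4 and CDH2 in 7. ITGB6 passed in 6 of 7. Over these settings and fits SKI ran between -0.24 and 0.0016, and ITGAV between -0.25 and 0.015. Against PD-1 alone, 1 of the 64 genes passed in 1 of 7 comparisons, INHA with PD-1/CD27 (1.19, standard error 0.283, edgeR adjusted p = 0.0230). In that comparison the mitochondrial MT-ND6 (1.40) and MT-ND4L (0.85), the nuclear RNA MALAT1 (0.90) and the RNA-processing genes PNISR (0.84), DDX39B (0.51) and TRA2A (0.46) were called higher too, and their part in the INHA result was not tested.

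Some markers of cell types and of RNA quality moved with the same groups. The 7 markers of the PANC-1 line summed to 8507 to 9354 TPM in libraries with protein-bearing DSLBs, against 6709 to 7654 TPM in the control libraries. For the 8 groups over both controls CDH1 was at -0.65 and VIM at 0.43. KRT8, KRT18, KRT19 and EPCAM also differed among the 10 groups by edgeR's test (adjusted p = 2.37e-06, 1.08e-05, 2.85e-07 and 0.00122). KRT7 did not pass (0.330). The values of CDH1 and VIM therefore do not describe all 7 markers, and the directions of the others are not given here. The 5 fibroblast markers summed to 132 to 250 TPM in libraries with protein-bearing DSLBs, against 300 to 403 TPM in the controls, a sum made almost wholly of COL1A1. The 4 macrophage markers summed to 23.5 to 52.2 TPM, against 24.4 to 33.25 TPM in the controls, with CD163 and CSF1R near 0, and the 5 T cell markers to at most 1.49 TPM. Of the RNA quality lists, the nuclear RNA MALAT1 was at 0.68 and the mitochondrial MT-ND6 at -0.59 in the same comparison. Among the 10 groups MT-ND6, MT-ND4L, MT-ATP8, MALAT1, PNISR, DDX39B and TRA2A passed edgeR's test. The other mitochondrial genes listed and NEAT1 did not, with adjusted p between 0.0625 (MT-ND3) and 0.562 (MT-ND1). The cultures held PANC-1 cells, with or without DSLBs, and no other cell type was added. The part of these markers in the results was not tested. Fewer PANC-1 cells with a marker and less of its RNA per cell cannot be told apart in bulk libraries.

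The transcript make-up that RSEM estimated for SKIL, read from its effective length, differed among the 10 groups (limma adjusted p = 0.0189, beside 1.92% of 11597 genes with varying effective length). That of TGFBR1 did not pass among the groups (0.0566) but did in single comparisons. The effective length is the length over which reads could start, averaged over a gene's transcripts by their estimated abundance, so it is larger where longer transcripts take a larger share. For SKIL it was 4285, 4184 and 4127 bases in PD-1 hybrids and 4575, 5640 and 5695 bases in PD-1/CD2 hybrids, against 3660, 3931 and 3679 bases in plain DSLB hybrids. All 3 libraries of each of these groups were above the plain DSLB libraries. The PD-1 difference from plain DSLB hybrids did not pass, however (log2 ratio 0.16, limma adjusted p = 0.542). DSLB-free tumoroids had 3989, 3820 and 4112 bases, the highest of them close to the lowest PD-1 library. The log2 ratio of PD-1/CD2 over plain DSLB hybrids was 0.49 (standard error 0.0752, limma adjusted p = 0.00175), where 5.97% of these genes passed. Over PD-1 hybrids it was 0.33 (adjusted p = 0.0443), where 0.612% of genes passed, and no other comparison with PD-1 alone passed for any of the 9 genes in effective length. MALAT1 (0.90), MT-ND6 (1.41) and the splicing regulator gene TRA2A (0.46) were called higher in PD-1/CD2 than in PD-1 hybrids by edgeR's test of counts, and their part in the SKIL difference was not tested. The PD-1/CTLA4 (0.31, beside 4.28% of all genes) and PD-1/TIGIT hybrids (0.37, beside 0.379%) also passed for SKIL over plain DSLB hybrids. For TGFBR1 the means were 5834 ± 533 bases in PD-1/CD2 and 5519 ± 129 bases in PD-1/CTLA4 hybrids, against 4368 ± 236 bases in plain DSLB hybrids (SD, n = 3 each), with log2 ratios of 0.41 (adjusted p = 0.00747) and 0.34 (0.0305). SMAD2 also passed with PD-1/CD2 (0.19, adjusted p = 0.0266).

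**Figure D4:**
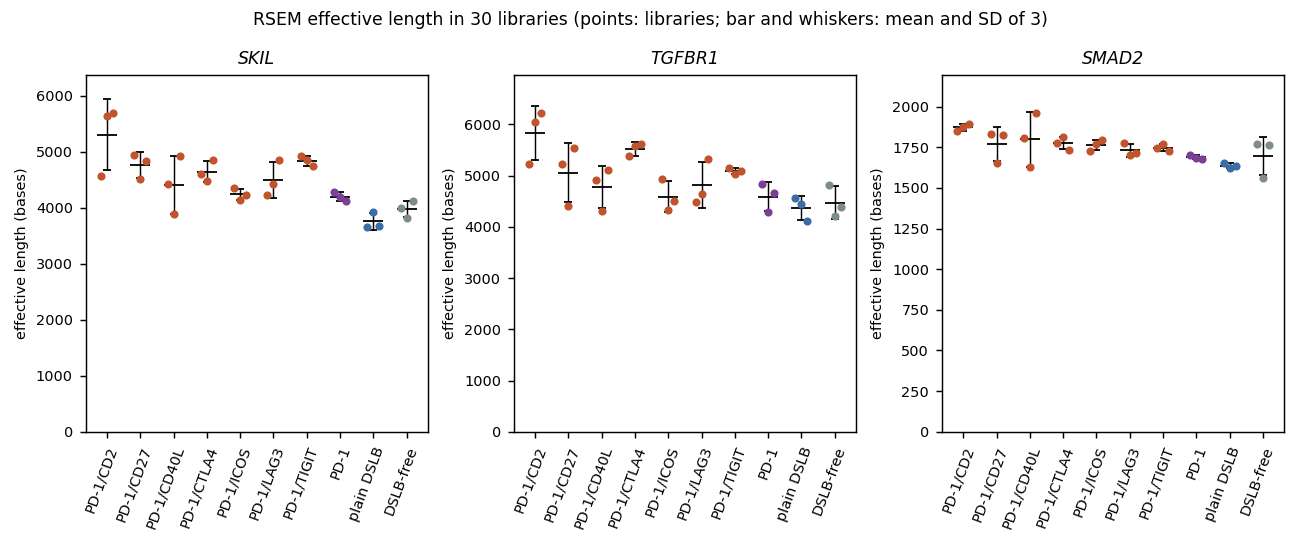
RSEM's effective length in bases (vertical axes from 0) of SKIL, TGFBR1 and SMAD2 in the 10 groups. Points are libraries, and the bar and whiskers are the mean and SD of 3. For SKIL the PD-1/CD2 libraries lie at 4575 to 5695 bases, above the plain DSLB libraries at 3660 to 3931 bases.

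TPM is computed with this length. The level of SKIL was 40.0 ± 0.568 TPM in PD-1 and 34.7 ± 10.8 TPM in PD-1/CD2 hybrids, against 49.5 ± 0.331 TPM in plain DSLB hybrids. The counts were 117 ± 6.03 CPM in PD-1 and 125 ± 15.8 CPM in PD-1/CD2 hybrids, against 119 ± 4.22 CPM in plain DSLB hybrids (SD, n = 3 each). For the 8 groups against both controls the log2 ratio of effective length was 0.25 for SKIL (adjusted p = 0.00112) and 0.18 for TGFBR1 (0.0228), beside 8.43% of all genes, while TGFB1 (adjusted p = 0.999), SMAD7 (0.981) and TGFBR2 (0.983) did not pass. Short reads from a single end leave the division between transcripts of a gene uncertain, and no file with values per transcript was used here.

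Over the 30 libraries, the genes with the profile most like TGFB1, among 12354 with a mean of at least 100 counts, were SLC6A8, a creatine transporter gene (Pearson's r = 0.957 of log2 CPM), EEF2 (0.921), a translation elongation factor gene, and ANXA11 (0.889), an annexin gene. Those most like SMAD7 were KLC2 (0.828), a kinesin light chain gene, PPARD (0.814), a lipid-sensing receptor gene, and AKT2 (0.813), a kinase gene. These values are descriptions over libraries that share groups, depth and base composition.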

How the data were processed

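Total RNA of 30 PANC-1 cultures was sequenced as short single-end reads from directional libraries. Per the labels and the methods, the authors checked read quality (FastQC 0.11.2), separated the libraries (SAMtools 1.3.1), trimmed reads (Trim Galore 0.3.3, cutadapt), aligned them to hg38 with STAR and quantified genes with RSEM. The deposited expected counts are RSEM's estimated counts per gene, not normalised, with ambiguous reads divided among genes. The deposited TPM were computed by the authors' RSEM run from those counts and the effective length of each gene, which stands in another column. The strand setting, the annotation release and the RNA selection step were not given in the labels or methods, the sources used here.

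Expected counts were rounded and fitted in edgeR 4.0.16 (R 4.3.3) as 1 model over the 30 libraries (a coefficient for each group), with TMM scaling, filterByExpr by group and robust quasi-likelihood tests. P-values were adjusted by Benjamini-Hochberg over all 18424 genes at a threshold of 0.05, and measure only the spread between the replicate cultures. The tests were 1 F-test over the 10 groups and 16 pairwise contrasts. A contrast of the 8 protein-bearing groups with both controls, weighted equally, and tests of log2 effective length by limma 3.58.1 on 11597 genes were added after the data were seen. Libraries held 21.9 M to 60.5 M counts, and the least counted of the 9 genes had 124 reads or more. On simulated counts for PD-1 against plain DSLB the edgeR fit recovered 56 of 100 genes changed by 0.5 on the log2 scale and 97 of 100 changed by 1, with 8 false calls among 17988 genes. The simulation gave every gene the same coefficient of variation, 0.0942, and held no outlying library. The 9 genes changed less than the simulated ones, by at most -0.35 over plain DSLB hybrids (TGFBR2). The recovery therefore does not give the power for changes of their size.

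The members and the pathway, marker and RNA quality lists were chosen with earlier results of these data known. Named were all 9 genes, and further pathway genes that passed in PD-1 against plain DSLB, in the 8 groups against both controls or against PD-1. For the other comparisons counts of pathway genes are given. Up to 4 genes per list that did not pass were named too. The remaining names are genes overlapping TGFB1 on the other strand, and the 3 genes most alike to each member that passed among the groups. Alternatives were DESeq2 1.42.0, edgeR on the 6 libraries compared, limma-voom, limma on log2(TPM + 0.1), other size factors and filters, a removed gene length or GC trend (spline with 5 degrees of freedom), a replicate block, and leaving out libraries. Positions come from GENCODE v44 on GRCh38 and promoter sequences from RefSeq on GRCh38.p14. A target gene of the pathway list is not reported here and stands in none of the list counts. The study's own lists of changed genes were not used.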

Additional observations from a re-analysis of the deposited data

How the results depend on the processing

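The count of the 9 genes called stayed at 0 in the 7 comparisons with PD-1 and in plain DSLB against DSLB-free under all 13 alternatives and without any single library compared. For the 8 groups against both controls (4) it was 4 to 6 under the other settings and 3 or 4 without single libraries, and among the 10 groups it was 2 to 3 without single libraries. Among the 10 groups (2 in the main fit) it was 4 by DESeq2, 5 on TPM, 5 with the length trend removed and 5 without 4 libraries that stood apart, PD-1/CTLA4 replicate 2 being the fourth (leaving out these libraries and removing a GC trend were chosen after seeing the data). Against plain DSLB hybrids the counts moved more, and the cause was not tested. With PD-1 (2) it was 4 by edgeR on 6 libraries, 1 on TPM, 1 without the filter, 4 with the length trend and 1 with the GC trend removed, 1 without 3 and 1 without 4 libraries, and 0 to 1 without single libraries. With PD-1/CD2 (2) it was 1 by DESeq2 and 0 by edgeR on 6 libraries, 5 on TPM, 4 with the length trend removed and 0 to 2 without single libraries. With PD-1/CD27 (1) it was 3 by DESeq2 and 3 by edgeR on 6 libraries, 0 on TPM, 0 without the filter, 2 with the length trend removed and 0 to 1 without single libraries. With PD-1/CD40L (2) it was 1 with the GC trend removed, and 2 without any single library. With PD-1/CTLA4 (3) it was 5 on TPM and 1 to 3 without single libraries. With PD-1/ICOS (3) it was 5 by DESeq2 and 6 by edgeR on 6 libraries, 1 on TPM, 1 without the filter and 1 to 2 without single libraries. With PD-1/LAG3 (2) it was 1 by DESeq2 and 0 by edgeR on 6 libraries, 4 on TPM, 4 with a mean of at least 100 counts, 4 with the length trend and 1 with the GC trend removed, 1 without 3 and 1 without 4 libraries, and 0 to 1 without single libraries. With PD-1/TIGIT (0) it was 2 by DESeq2 and 3 by edgeR on 6 libraries, 3 on TPM, 1 with a mean of at least 100 counts, 1 with the length and 1 with the GC trend removed, 2 without 4 libraries, and 0 to 1 without single libraries.

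Of the alternative values of the 19 single gene differences that were called, 349 kept direction and call, 87 were no longer past the threshold and 1 reversed, TGFB1 in PD-1/LAG3 against plain DSLB at -0.010 with the GC trend removed. Differences that were not called could pass under another setting, as did SMAD2 in PD-1/CD2 against plain DSLB at -0.29 on TPM (adjusted p = 0.00641). Over all genes, edgeR on 6 libraries called 6138 genes in PD-1 against plain DSLB, against 4054 in the main fit. The deviations of replicates of the same number had correlations of -0.606 to 0.630 over 135 pairs (median 0.0122, 44 pairs over 0.1). For different numbers the median was -0.0121 over 270 pairs, with 74 over 0.1. The study processed its conditions in 3 parallel replicates, and these correlations cannot decide whether the numbers pair the samples. With a replicate block 3 genes were called among the 10 groups and 3 in PD-1/LAG3 against plain DSLB, and no other count of the 9 genes changed.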
